A study of Mus musculus with 3 samples.

Results

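The genes described here are 32 mouse genes of endoplasmic reticulum (ER) protein folding and of the unfolded protein response, taken by name from a fixed list among the 54532 genes of the deposited table. All 32 were found, and 31 of them had a mean of at least 1 FPKM over the libraries (sequenced fragments relative to gene length and library depth), a level that 11069 genes of the table reached. Derl3 did not reach it and is given apart. The list holds 3 chaperones of the HSP70 and HSP90 type, 7 co-chaperones, 2 lectin chaperones, 4 protein disulfide isomerases, 4 genes of the stress sensors and XBP1, 9 genes of ER-associated degradation and 3 of the translocon.

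The libraries came from RAW264.7, an established mouse macrophage line of wild-type genotype that turns into bone-resorbing osteoclasts under the cytokine RANKL. All 3 groups had RANKL for 3 days. The first group had no thyroid stimulating hormone (TSH) and is labelled 0 h. The others then had TSH at 10 mU/mL, in one group for 2 h and in the other for 24 h. Each group was 1 library of 1 cell line. The table heads the TSH libraries T1 and T2 without their hours, so the comparisons here carry those names and say nothing about time.

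The whole reads behind the FPKM values came to 16156926 for RANKL alone and to 16809034 and 17390744 for T1 and T2. A group of 1 library gives no spread between replicates, so there is no p-value. A ratio of FPKM carries an exact conditional (Clopper-Pearson) 95% interval from the reads, and a gene is called lower or higher "beyond counting error" where that interval leaves out 1. Such a call compares these libraries, not the conditions, it covers counting error only, and well covered genes pass it at small differences. Both TSH libraries are set against 1 shared library of RANKL alone, so those comparisons are not independent of each other. In bulk RNA, fewer cells of a type and less RNA per cell cannot be told apart.

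The ER is where secreted and membrane proteins enter, fold, gain their sugars and disulfide bonds and are sorted for export or destruction. When unfolded proteins collect there, the membrane sensors IRE1, ATF6 and PERK start the unfolded protein response: IRE1 splices the mRNA of the transcription factor XBP1, cut ATF6 enters the nucleus, and PERK slows translation and favours ATF4. XBP1 and ATF6 raise the chaperones, isomerases and degradation factors of this list. Osteoclasts make large amounts of lysosomal and secreted hydrolases and of membrane pumps, which pass through this compartment.

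A known DNA element of this response is the ER stress response element (ERSE), which reads CCAAT, then 9 bases of any kind, then CCACG, and which ATF6 binds together with the CCAAT-binding factor NF-Y. The short form ERSE-II reads ATTGG, 1 base of any kind, then CCACG. Both were searched on both strands of RefSeq promoters (GRCm38.p6, 250 bases before to 50 bases after each start), which matched 26 of the 32 genes. Sil1, Atf6, Derl1, Hyou1, Sec61a1 and Manf had no match in the promoter table. ERSE was found in 9 of these 26 genes (34.6%), against 0.137% of all 27025 genes with a promoter. ERSE-II was found in 2 of the 26 genes (7.69%), against 0.0444% of all genes. Both are known elements of this response and the list holds its genes, so these shares are a description and not a test. The elements are shown because the differences between the TSH libraries are read by them further on. Each is written 5′ to 3′ on the strand that matches, and the capitals mark the fixed letters of the motif.
Hspa5, ERSE, chr2:34772025-34772043, plus strand: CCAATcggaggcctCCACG
Hsp90b1, ERSE, chr10:86705533-86705551, plus strand: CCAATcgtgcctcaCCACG
Hsp90b1, ERSE, chr10:86705638-86705656, minus strand: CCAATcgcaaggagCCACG
Dnajc3, ERSE, chr14:118937827-118937845, plus strand: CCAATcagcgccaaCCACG
Creld2, ERSE, chr15:88819520-88819538, minus strand: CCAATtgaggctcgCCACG
Calr, ERSE, chr8:84847075-84847093, plus strand: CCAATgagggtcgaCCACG
Canx, ERSE, chr11:50325800-50325818, minus strand: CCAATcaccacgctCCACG
Pdia6, ERSE, chr12:17266491-17266509, plus strand: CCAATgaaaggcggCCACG
Syvn1, ERSE, chr19:6046532-6046550, plus strand: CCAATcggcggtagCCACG
Derl3, ERSE, chr10:75893242-75893260, minus strand: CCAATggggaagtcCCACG
Dnajb11, ERSE-II, chr16:22857852-22857862, plus strand: ATTGGcCCACG
Herpud1, ERSE-II, chr8:94386377-94386387, plus strand: ATTGGgCCACG

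The bases between the fixed letters differed from element to element. Hsp90b1 was the member with more than 1 element, and the Hspa5 element lay 65 to 47 bases before the RefSeq start. That start is inside the gene as the deposited coordinates draw it (chr2:34771970-34777547). The Creld2 promoter is given at length, as the other gene chosen to mark the list. It runs on the plus strand (chr15:88819396-88819645, GRCm38.p6) up to the base before the start, and capitals mark the fixed letters of its ERSE, which here reads in reverse complement. The same element lies in the promoter of Alg12, a gene of N-glycan synthesis that points the other way.
Creld2: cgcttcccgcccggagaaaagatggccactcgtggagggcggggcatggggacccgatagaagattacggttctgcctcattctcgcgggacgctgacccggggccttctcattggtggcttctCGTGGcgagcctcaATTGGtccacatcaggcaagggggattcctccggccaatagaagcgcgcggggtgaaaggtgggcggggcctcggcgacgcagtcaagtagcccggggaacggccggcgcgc

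Further motifs were searched in the same windows, on both strands. The UPR element TGACGTGG, linked to XBP1, was in 0 of the 26 promoters and in 0.714% of all genes. The C/EBP-ATF response element TGATGNAA, linked to ATF4, was in the Herpud1 promoter alone of the 26 (3.85%), against 4.51% of all genes. A match is a description of letters and not a site of binding, and no match says only that these letters are not in the window.

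The abundant genes of the list were among the most abundant in the cells. P4hb, encoding the founding protein disulfide isomerase, stood at 316, 310 and 314 FPKM in RANKL alone, T1 and T2, and with RANKL alone it lay above 98.7% of all genes past that filter. Calr stood higher than 98.5% of them and Hspa5 higher than 98.1%. At the other end, Ern1, Dnajb9 and Eif2ak3 lay near the middle of all genes past the filter (50.9%, 50.9% and 50% had a lower level), and Derl2 was the lowest of the 31, with 34.0% below it. Hspa5 and Creld2, the genes that mark the list, were at 233 and 31.7 FPKM with RANKL alone. The summed level of the 32 genes was 2047, 2011 and 1952 FPKM in RANKL alone, T1 and T2, which was 0.601%, 0.580% and 0.576% of each library's summed FPKM. The levels therefore spanned a wide range between genes and a narrow one between libraries.

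**Figure D1:**
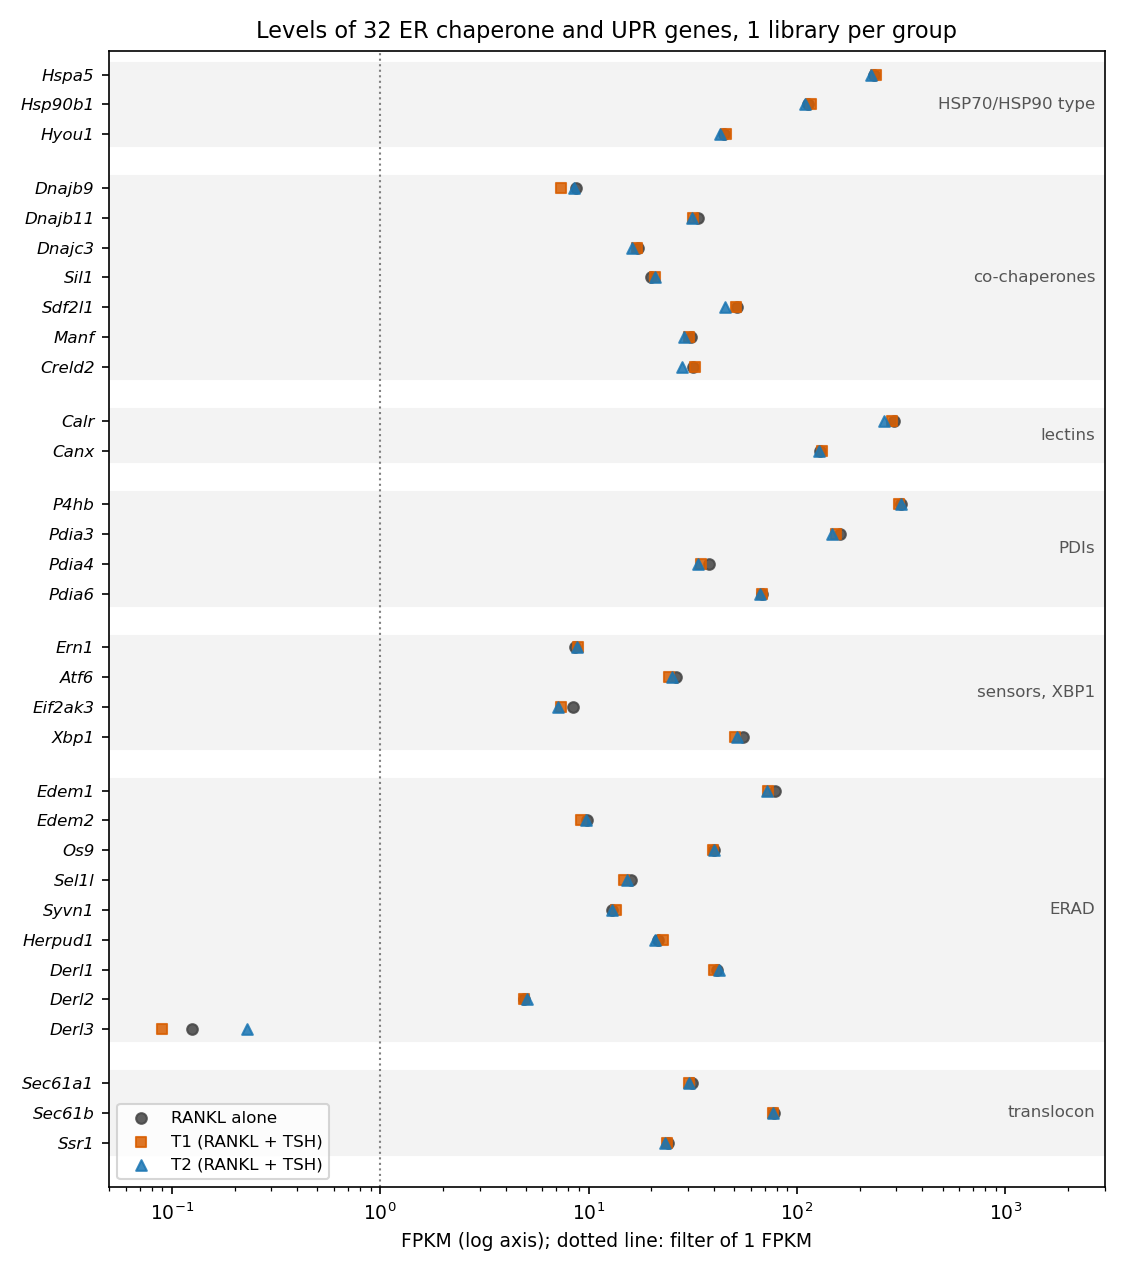
Level in FPKM (log axis) of each of the 32 genes, grouped by role, in the library of RANKL alone (circles), T1 (squares) and T2 (triangles). The symbols of a gene nearly coincide for most genes, P4hb, Calr and Hspa5 lie highest, and Derl3 alone lies under the dotted filter line.

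Markers of the cell types were read first. The osteoclast markers were high in all 3 libraries, with summed levels of 3139, 2613 and 2535 FPKM, and Ctsk, encoding the collagen protease cathepsin K, was at 1337, 983 and 980 FPKM. Of the 10 osteoclast markers past the filter, 6 were lower and 1 higher beyond counting error in T1 against RANKL alone (12.2% and 10.8% of all genes), and 10 were lower in T2 (13.2%). Above a mean of 20 FPKM 19.4% of genes were lower and 19.2% higher in T1, and 24.8% were lower in T2. The part of the differences in osteoclast markers in the results on ER genes was not tested. Markers of osteoblasts and fibroblasts passed the filter in 0 of 10 cases, with sums of 0.373, 0.380 and 0.259 FPKM, and Col1a2, Bglap, Lum and Postn had 0 reads in every library. Neutrophil markers passed in 0 of 8 cases, with sums of 0.207, 0.176 and 0 FPKM, and Ly6g, S100a9 and Ltf had 0 reads in every library. Of 9 lymphocyte markers Lck alone passed (sums of 1.446, 1.497 and 1.713 FPKM), with Cd3e, Cd4 and Ms4a1 at 0 reads. Of 8 dendritic cell markers Cd74 and Itgax passed (sums of 91.8, 85.2 and 95.2 FPKM), both of which macrophages also express, with Flt3, Ccr7 and Siglech at 0 reads.

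How the ER genes stood after TSH was read first in T1 against RANKL alone. Of the 31 genes, 9 were lower beyond counting error and 0 higher, where 12.2% of all genes past the filter were lower and 10.8% higher. They were Calr, Pdia3, Edem1, Xbp1, Pdia4, Atf6, Sel1l, Dnajb9 and Eif2ak3, so the list included the sensors ATF6 and PERK and the factor XBP1. The median log2 change of the 31 genes, on log2(FPKM + 1), was -0.026, against -0.001 over all genes, and 22 of 31 lay below 0. Well covered genes are called more often, and above a mean of 20 FPKM 19.4% of genes were lower and 19.2% higher, where 6 and 0 of 23 members were. No member reached a ratio of 5 to 4 in either direction, which 5.65% of genes did downwards and 5.92% upwards. All 9 calls held under each of 4 scalings of the libraries, and 5 held with a 99% interval.

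In T2 against RANKL alone 13 of the 31 genes were lower beyond counting error and 0 higher, where 13.2% of all genes were lower and 10.2% higher. They were Hspa5, Hsp90b1, Hyou1, Sdf2l1, Manf, Creld2, Calr, Pdia3, Pdia4, Atf6, Eif2ak3, Xbp1 and Edem1, and the first 7 of these are chaperones or co-chaperones. The median log2 change was -0.045, against -0.002 over all genes, and 25 of 31 lay below 0. Above a mean of 20 FPKM 24.8% of genes were lower and 15.3% higher, where 12 and 0 of 23 members were. No member reached a ratio of 5 to 4, which 5.53% of genes did downwards and 5.61% upwards. With the summed reads taken as each library's depth, 9 of the 13 calls were made, and Hspa5, Hsp90b1, Hyou1 and Atf6 were then within counting error. With a 99% interval 6 calls were made.

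**Figure D2:**
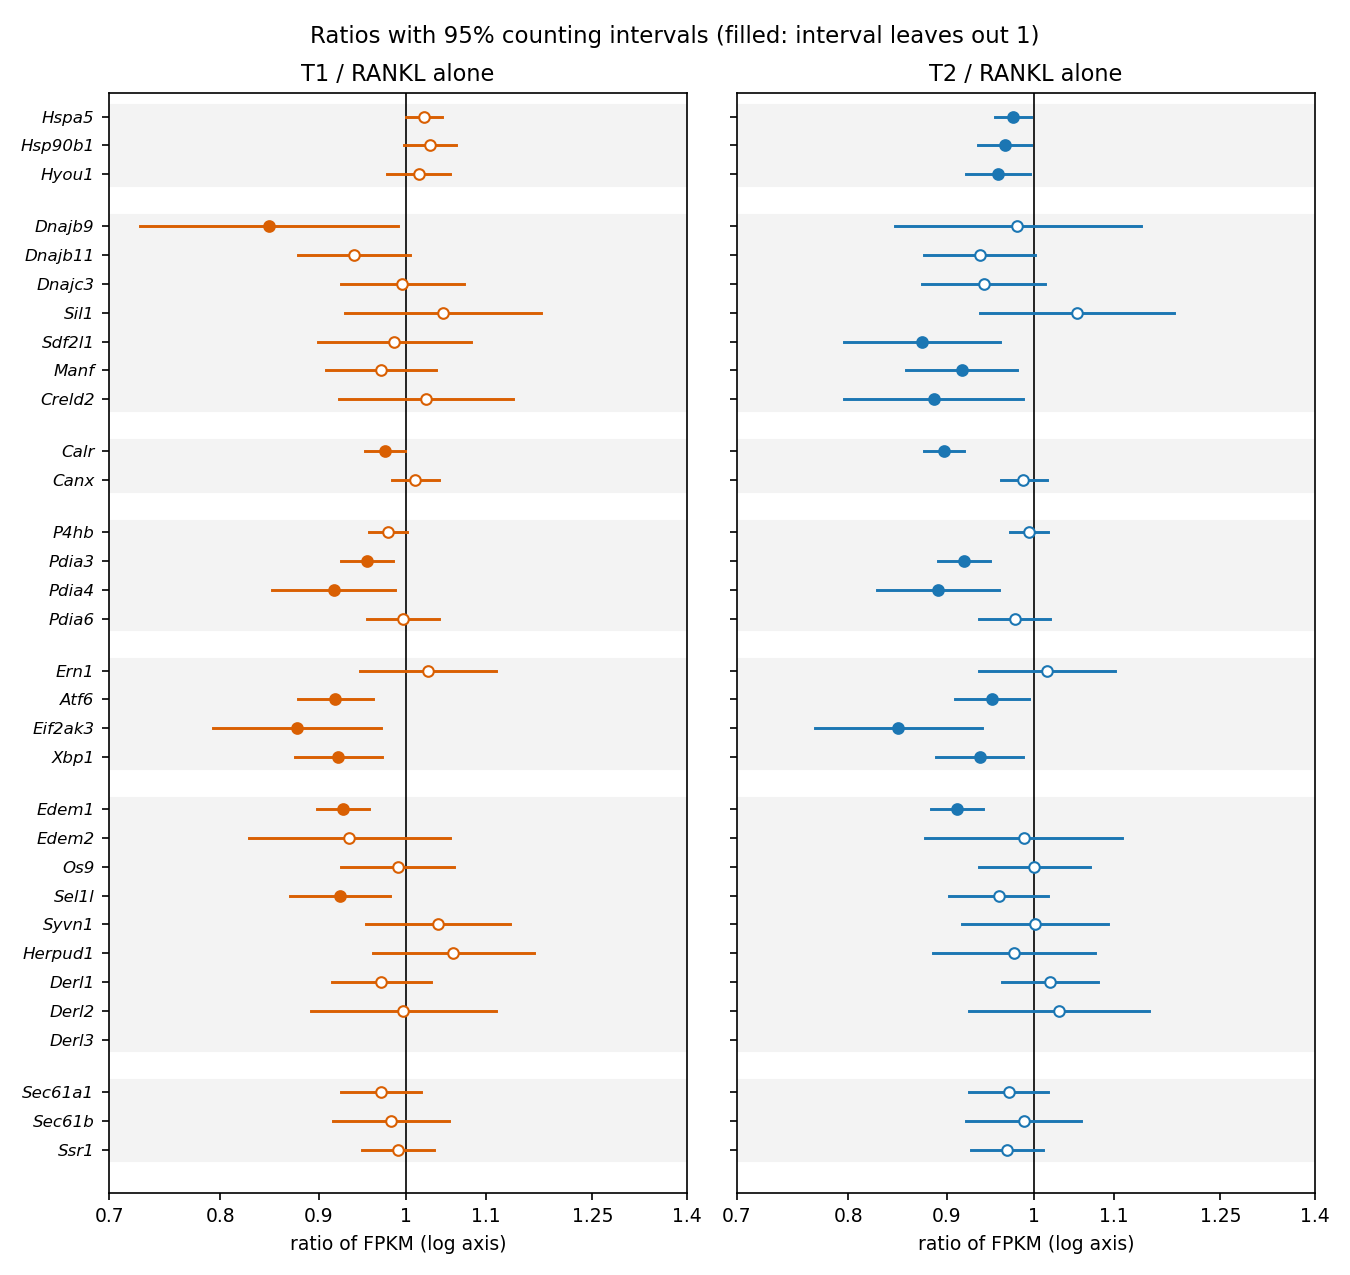
Ratio of FPKM (log axis) of each gene in T1 (left) and T2 (right) against RANKL alone, with bars for the 95% counting interval; filled points have an interval that leaves out 1, and Derl3 is not drawn. In T1 the 9 filled points and in T2 the 13 filled points all lie left of 1.

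The T2 library was compared with T1, without the library of RANKL alone. Of the 31 genes 7 were lower in T2 beyond counting error and 0 higher, where 10.1% of all genes were lower and 7.93% higher. These were Hspa5, Hsp90b1, Hyou1, Sdf2l1, Creld2, Calr and Pdia3. The split depended on the scaling: with libraries rescaled to the same summed FPKM it was 5 lower and 5 higher, where 5.63% and 14.0% of all genes were. With summed reads as depth it was 6 lower and 4 higher, where 7.91% and 10.4% were. The genes that became higher under one or both of these were P4hb, Derl1, Atf6, Dnajb9 and Sel1l. Calr, Hspa5, Hsp90b1, Sdf2l1 and Creld2 were lower under all 4 scalings, and 0 genes were higher under all 4. The median log2 change was -0.028, against -0.003 over all genes, and it was 0.005 with the same summed FPKM, where all genes had a median of 0.027. Above a mean of 20 FPKM 20.5% of genes were lower and 8.73% higher, where 7 and 0 of 23 members were. No member reached a ratio of 5 to 4, which 4.82% of genes did downwards and 4.77% upwards.

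**Figure D3:**
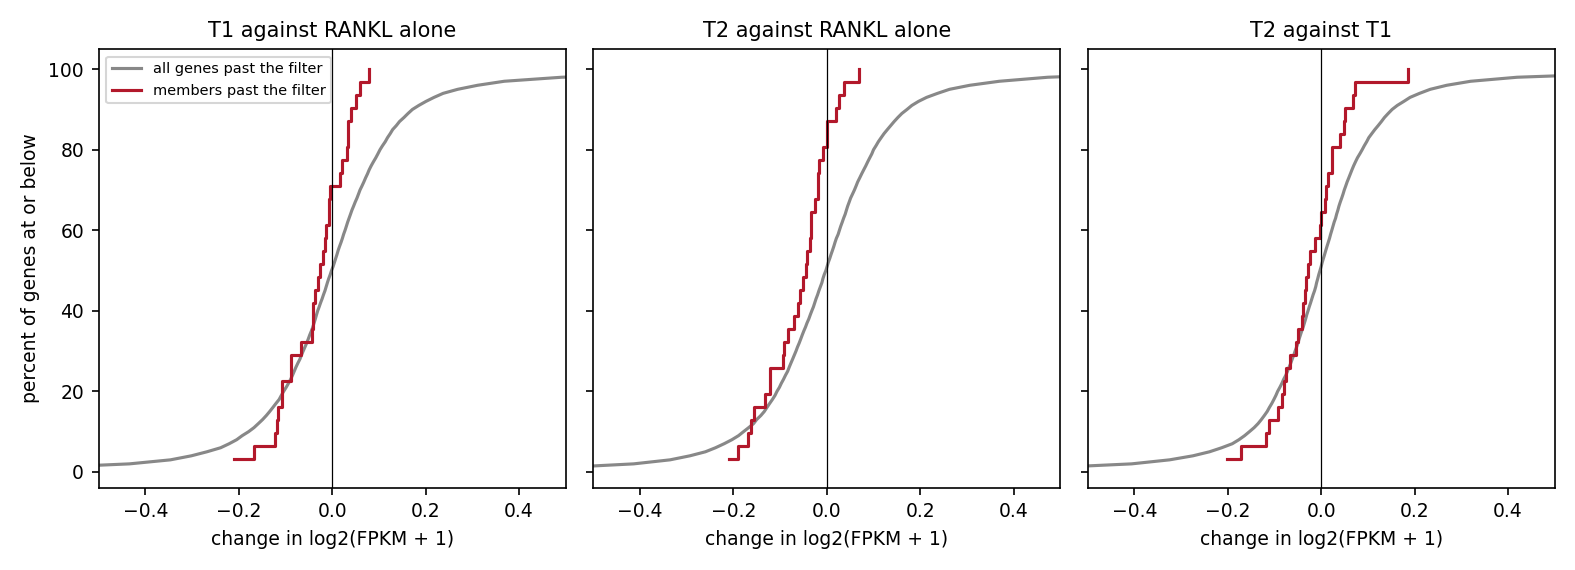
Percent of genes (vertical axis) at or below each change in log2(FPKM + 1) (horizontal axis) for all genes past the filter (grey) and the 31 members past it (red), in each comparison. The members span a narrower range than all genes, with medians of -0.026, -0.045 and -0.028.

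Among the chaperones, BiP and its partners of the HSP70 and HSP90 type were lowest in T2. Hspa5 encodes BiP, which binds unfolded chains in the ER and holds the sensors inactive. It was at 233, 238 and 227 FPKM in RANKL alone, T1 and T2, the order of all values that follow, from 15910, 16897 and 16854 reads. The ratio of T2 to T1 was 0.954 (95% counting interval 0.934 to 0.975), and that of T1 to RANKL alone was 1.02 (0.9995 to 1.04). Hsp90b1 encodes GRP94, a chaperone of toll-like receptors and integrins, and was at 113, 117 and 109 FPKM, a ratio of T2 to T1 of 0.938 (0.909 to 0.968). It overlaps 1810014B01Rik on the other strand, which had 63, 88 and 106 reads. Hyou1, encoding the large HSP70 relative GRP170, which also exchanges the nucleotide of BiP, was at 44.8, 45.4 and 42.8 FPKM, a ratio of 0.943 (0.908 to 0.979) that was within counting error with the same summed FPKM. As deposited, all 3 genes had their highest level in T1 and their lowest in T2, and were within counting error in T1 against RANKL alone.

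The co-chaperones and exchange factors, which load clients onto BiP or reset it, did not share 1 order. Creld2, an ER stress gene with EGF-like domains (chr15:88819646-88826683), was at 31.7, 32.5 and 28.1 FPKM, a ratio of T2 to T1 of 0.866 (0.779 to 0.962). Sdf2l1, a partner of the J-domain co-chaperone ERdj3, was at 51.8, 51.0 and 45.2 FPKM, a ratio of T2 to T1 of 0.886 (0.808 to 0.973). In both genes T2 was the low library, and RANKL alone and T1 were within counting error of each other. Manf, encoding a small protein that steadies the complexes of BiP with its clients, was at 31.2, 30.2 and 28.6 FPKM, a ratio of T2 to RANKL alone of 0.917 (0.858 to 0.980). Its gene overlaps Dcaf1 on the other strand, which had 1165, 1278 and 1337 reads, so its own level is uncertain.

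Dnajb9, encoding ERdj4, the J-domain protein that brings BiP to IRE1, was the co-chaperone that was low in T1 instead. It was at 8.66, 7.35 and 8.48 FPKM, from 356, 314 and 379 reads, and its ratio of T1 to RANKL alone was 0.848 (0.727 to 0.9901). The ratio of T2 to T1 was 1.16 (0.992 to 1.35). A further 3 genes were within counting error in every comparison as deposited. Dnajb11, encoding ERdj3, was at 33.6, 31.6 and 31.5 FPKM, and with the same summed FPKM it was called lower in T1 against RANKL alone. Dnajc3, encoding p58IPK, a co-chaperone that also restrains PERK, was at 17.2, 17.1 and 16.2 FPKM. Sil1, encoding a nucleotide exchange factor of BiP, was at 19.9, 20.8 and 20.9 FPKM, so it was lowest with RANKL alone.

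The lectin chaperones hold glycoproteins by a sugar left on their N-glycans, and the soluble and the membrane-bound form had different values. Calr, encoding the soluble calreticulin (chr8:84841850-84846934), was at 292, 285 and 262 FPKM. Its ratio to RANKL alone was 0.974 (0.951 to 0.998) in T1 and 0.897 (0.876 to 0.919) in T2, and T2 stood at 0.921 (0.899 to 0.943) of T1. It was called lower in all 3 comparisons and under all 4 scalings of each. Canx, encoding the membrane-bound calnexin, was at 130, 131 and 128 FPKM and within counting error in all 3 comparisons.

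Of the protein disulfide isomerases, which form and shuffle disulfide bonds, those with lower calls were Pdia3 and Pdia4. Pdia3 encodes ERp57, which works on glycoproteins together with calreticulin and calnexin, and was at 161, 153 and 148 FPKM, a ratio of T2 to RANKL alone of 0.919 (0.891 to 0.948). Pdia4, encoding ERp72, was at 37.8, 34.7 and 33.7 FPKM, and T1 stood at 0.917 (0.851 to 0.987) and T2 at 0.891 (0.828 to 0.959) of RANKL alone. RANKL alone was the high library for both. Pdia6, encoding an isomerase that acts on IRE1, was at 68.2, 67.9 and 66.6 FPKM. As deposited, Pdia6 and P4hb, given above, were both within counting error in every comparison. With the same summed FPKM P4hb was called lower in T1 against RANKL alone and higher in T2 against T1.

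The stress sensors and XBP1 had the lowest median of all groups in T1 against RANKL alone (-0.12), and 3 of the 4 genes were lower beyond counting error in each TSH library, where 12.2% (T1) and 13.2% (T2) of all genes were. With summed reads as depth the call of Atf6 in T2 was lost, which left 2 of 4. Eif2ak3 encodes PERK, the kinase that slows translation (chr6:70844515-70905245). It was at 8.41, 7.37 and 7.14 FPKM, from 817, 745 and 754 reads, and T1 stood at 0.877 (0.793 to 0.970) and T2 at 0.849 (0.768 to 0.939) of RANKL alone. The latter was the lowest ratio to RANKL alone in T2 of the 31 genes. Atf6, encoding the sensor that is cut to give a transcription factor, was at 26.4, 24.2 and 25.1 FPKM, with ratios of 0.918 (0.878 to 0.960) and 0.951 (0.910 to 0.994). Xbp1 was at 54.9, 50.6 and 51.4 FPKM, with ratios of 0.922 (0.875 to 0.972) and 0.936 (0.889 to 0.986). The gene-level value does not tell the spliced from the unspliced Xbp1 mRNA, so splicing by IRE1 was not measured. Ern1, encoding IRE1 itself, was at 8.65, 8.87 and 8.78 FPKM and within counting error throughout. T1 and T2 were within counting error of each other for all 4 genes as deposited.

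Genes of ER-associated degradation, which trim, recognise and pull out failed proteins for the proteasome, were called lower for 2 of 8 in T1 (12.2% of all genes), 1 of 8 in T2 (13.2%) and 0 of 8 in T2 against T1 (10.1%). Edem1, encoding a protein that speeds mannose trimming of misfolded glycoproteins, was the most abundant of them at 78.4, 72.6 and 71.4 FPKM, and its ratios to RANKL alone were 0.927 (0.898 to 0.956) and 0.911 (0.884 to 0.940). Sel1l, encoding the adaptor of the HRD1 ubiquitin ligase, was at 15.9, 14.7 and 15.3 FPKM, a ratio of T1 to RANKL alone of 0.923 (0.869 to 0.981). These were the genes of the group called in T1, and Edem1 was the one called in T2. Herpud1, encoding a membrane protein of the HRD1 complex, was at 21.4, 22.7 and 20.9 FPKM, a ratio of T2 to T1 of 0.922 (0.839 to 1.01).

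The other genes of this group were within counting error in all 3 comparisons as deposited. They are the mannose-trimming gene Edem2 (9.87, 9.21 and 9.74 FPKM), the lectin gene Os9 (40.0, 39.6 and 40.0 FPKM) and Syvn1, the HRD1 ligase gene itself (13.0, 13.5 and 13.0 FPKM). The derlins, membrane proteins of the exit channel, were at 41.3, 40.1 and 42.1 FPKM for Derl1 and at 4.91, 4.90 and 5.06 FPKM for Derl2. Derl1 has a processed pseudogene, Gm35638, with 17, 22 and 16 reads of its own. Syvn1 overlaps Mrpl49 on the other strand (639, 667 and 772 reads), and Derl2 overlaps Mis12 (675, 682 and 764 reads), which makes both levels uncertain. Derl3, the remaining derlin, had 4, 3 and 8 reads (0.124, 0.0898 and 0.229 FPKM). A difference in Derl3 was not detectable at this depth, since the interval of its ratio of T2 to T1 ran from 0.613 to 14.9.

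Of the translocon genes 0 of 3 were called in any comparison as deposited, where 10.1% to 13.2% of all genes were called lower, so 3 genes say little here. Sec61a1, encoding the pore through which new chains enter, was at 31.3, 30.4 and 30.3 FPKM, and with the same summed FPKM it was called lower in T1 against RANKL alone. Sec61b, encoding a small subunit of the same channel, was at 78.0, 76.5 and 77.0 FPKM, and its 3 near-identical copies had at most 5 reads in a library. Ssr1, encoding a subunit of the translocon-associated protein complex, was at 24.1, 23.9 and 23.3 FPKM. By medians on the log2(FPKM + 1) scale, T2 against T1 ran from -0.08 in the HSP70 and HSP90 type, the co-chaperones and the lectins through -0.03 in the isomerases to -0.00 in the translocon, 0.00 in the sensors and 0.03 in degradation. These group medians rest on 2 to 8 genes.

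The elements printed above were then set beside the values. Of the 11 genes with an ERSE or ERSE-II, 10 passed the filter, Derl3 being the other, and 15 genes had a matched promoter with neither element. In T2 against T1 the median log2 change was -0.07 with an element and 0.01 without, and 10 of 10 against 7 of 15 genes lay below 0. Lower beyond counting error were 4 of 10 (Hspa5, Hsp90b1, Creld2 and Calr) and 2 of 15 (Sdf2l1 and Pdia3), where 10.1% of all genes past the filter were and 20.5% of those above 20 FPKM. The genes with an element were the more abundant ones, with a median level of 50.9 FPKM with RANKL alone against 37.8 FPKM. A scaling shifts the genes of a library almost alike on this scale, so it could hardly change the distance between the medians (-0.079 or -0.080). With the same summed FPKM 8 of the 10 genes lay below 0, and with summed reads as depth 9 did. In T1 against RANKL alone the genes with an element were the higher ones, at a median of 0.02 against -0.07, with 1 of 10 and 7 of 15 lower beyond counting error, where 12.2% of all genes were. In T2 against RANKL alone both medians were close, at -0.04 and -0.05, with 4 of 10 and 6 of 15 lower, where 13.2% of all genes were. Both with the same summed FPKM and with summed reads as depth it was 2 of 10 and 6 of 15. These 3 comparisons are made from the same 3 libraries, and the groups of genes were compared as a description with no test.

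**Figure D4:**
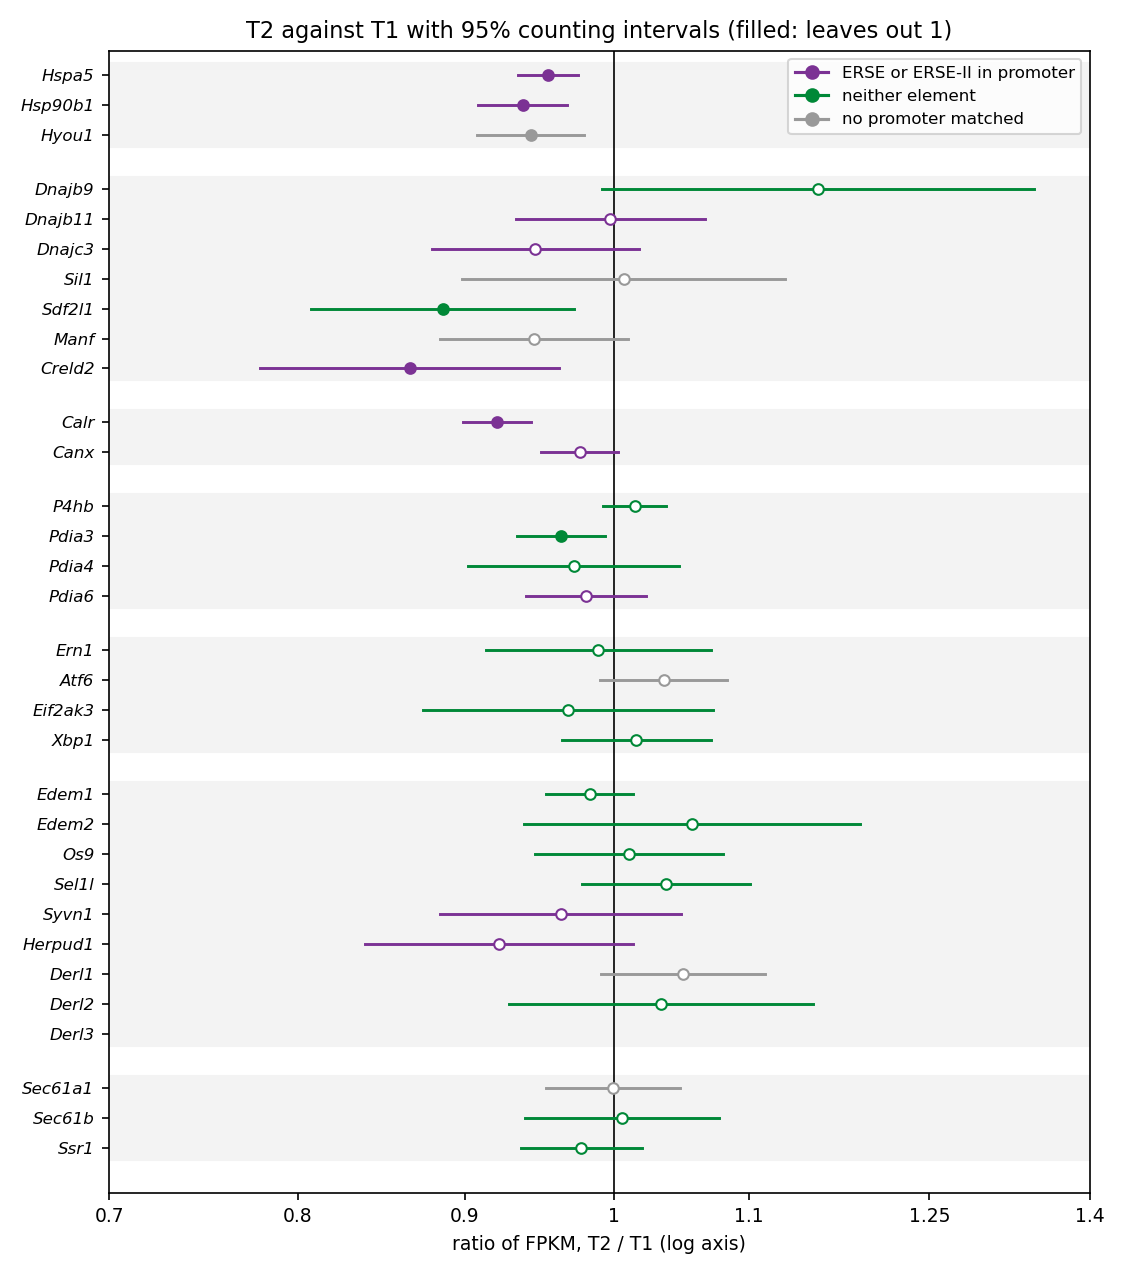
Ratio of FPKM (log axis) of each gene in T2 against T1, with bars for the 95% counting interval, coloured by promoter (purple with ERSE or ERSE-II, green with neither, grey where no promoter was matched); filled points have an interval that leaves out 1. With FPKM as deposited all 10 purple points lie left of 1 (8 with the same summed FPKM), and the 7 filled points lie left of 1.

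Gene length went along with small shifts over all genes, and its part was not tested. In T2 against T1 the median over all genes was -0.023 in the shortest genes, -0.004 in those of middle length and 0.009 in the longest, 3 groups of equal size. The genes with an element lay there as 2, 8 and 0 of the 10. Outside the list, 11 genes with an ERSE or ERSE-II, matched by symbol, passed the filter, at a median level of 6.04 FPKM with RANKL alone. In T2 against T1 their log2 changes ran from -0.17 to 0.15 with a median of -0.04, 7 of 11 lay below 0, 1 was lower and 2 were higher beyond counting error, and against RANKL alone their median in T2 was 0.06. Any part of the elements in these values was not tested. The genes with an ERSE were 4 of these 11. Their median was -0.082 in T2 against T1, with 3 of 4 below 0, beside -0.071 for the members with an ERSE. In T2 against RANKL alone both medians were -0.044, and that of the members with neither element was -0.045. There 0 of the 4 genes outside the list were lower beyond counting error, against 4 of 8 members with an ERSE. The 4 genes outside the list were at low levels, and the groups were not tested. Of them Adcy3, an adenylyl cyclase gene, had a ratio of T2 to T1 of 0.858 (0.737 to 0.998), Hnrnpa3 one of 0.922 (0.816 to 1.04), Alg12 one of 0.949 (0.790 to 1.14) and Pan2 one of 1.01 (0.907 to 1.13). Ero1lb also has an ERSE, but the promoters name it Ero1b, so it is not in these counts and medians. It was at 7.31, 7.18 and 6.85 FPKM and within counting error throughout, with a ratio of T2 to T1 of 0.954 (0.864 to 1.05).

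Further genes of the compartment were read as lists, chosen with earlier results known and counted with FPKM as deposited. In 5 lists of other ER genes together 129 of 140 passed the filter, with medians against RANKL alone of -0.01 for T1 and -0.01 for T2, and of -0.02 for T2 against T1. Their calls went both ways, with 10 lower and 13 higher in T1, 16 and 13 in T2, and 14 and 6 in T2 against T1. Over all genes the shares lower and higher were 12.2% and 10.8%, 13.2% and 10.2%, and 10.1% and 7.93%, so these counts were close to the background. Among 34 further folding and redox genes 2 were lower and 2 higher in T1, 2 and 3 in T2, and 2 and 3 in T2 against T1. Ero1l, the oxidase that recharges the disulfide isomerases, was at 16.1, 16.0 and 18.3 FPKM, a ratio of T2 to T1 of 1.15 (1.07 to 1.23). Selenom and Selenok, ER selenoproteins, were low in T1, with ratios to RANKL alone of 0.754 (0.582 to 0.976) and 0.854 (0.762 to 0.957).

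KDEL receptors return escaped chaperones such as BiP from the Golgi, and with genes of ER exit they made up 25 genes past the filter. Of these 4 were lower and 3 higher in T1, 4 and 0 in T2, and 6 and 1 in T2 against T1. Over all genes the shares lower and higher were 12.2% and 10.8% in T1 and 13.2% and 10.2% in T2. In T2 against T1 they were 10.1% and 7.93%, and 20.5% and 8.73% above a mean of 20 FPKM. Kdelr1 was at 44.7, 40.7 and 41.8 FPKM and Kdelr2 at 49.2, 45.5 and 47.3 FPKM, both lower in T1, with ratios to RANKL alone of 0.911 (0.844 to 0.984) and 0.925 (0.859 to 0.997). Sec13, a coat gene of export vesicles, was at 36.9, 39.4 and 34.3 FPKM, highest in T1 and lowest in T2. Among 23 other degradation genes 4 were lower and 1 higher in T1, 3 and 2 in T2, and 1 and 1 in T2 against T1. Vcp, the ATPase that pulls proteins out of the membrane, was at 101, 96.8 and 89.3 FPKM, a ratio of T2 to RANKL alone of 0.882 (0.854 to 0.910), and its processed pseudogene Vcp-rs, which is near-identical, had 1360, 1614 and 1607 reads. Among 32 genes of translocation, signal peptidase and glycosylation 0 were lower and 4 higher in T1, 5 and 4 in T2, and 2 and 0 in T2 against T1, with Krtcap2, of the oligosaccharyltransferase and with an ERSE-II in its promoter window, at 65.3, 77.1 and 75.1 FPKM.

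The sensor pathways were read apart. Of 15 other ATF6 and IRE1 pathway genes 3 were lower and 1 higher in T2 against T1, with 0 and 3 in T1 and 2 and 4 in T2 against RANKL alone. Atf6b, the relative of ATF6, was at 42.7, 46.0 and 42.8 FPKM and thus highest in T1, with a ratio to RANKL alone of 1.08 (1.01 to 1.15). Of the Golgi proteases that cut ATF6, Mbtps1 was at 14.5, 14.9 and 15.4 FPKM, called higher in T2 against RANKL alone at a ratio of 1.06 (1.004 to 1.119), and Mbtps2 at 9.78, 9.68 and 9.62 FPKM, within counting error throughout. In the PERK and ATF4 arm 8 of 18 genes were higher and 1 lower in T2 against T1, where 7.93% of all genes were higher and 10.1% lower, with a median of 0.15. Against RANKL alone 5 were lower and 1 higher in T1 (12.2% and 10.8% of all genes), and 0 and 4 in T2 (13.2% and 10.2%). Atf4 was at 149, 140 and 154 FPKM, a ratio of T2 to T1 of 1.103 (1.064 to 1.144), and Trib3, an ATF4 target, at 5.40, 4.10 and 7.17 FPKM. Ddit3, encoding the stress factor CHOP, was at 5.43, 5.01 and 5.76 FPKM and within counting error throughout. Of 6 transcripts known as targets of IRE1 decay 2 passed the filter, and Pmp22 at 1.66, 1.72 and 2.38 FPKM and Hgsnat at 12.6, 11.8 and 13.4 FPKM were highest in T2.

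Chaperones of other compartments were set beside those of the ER. Of 19 cytosolic chaperones 10 were lower and 1 higher in T2 against T1, with a median of -0.04, while in T1 against RANKL alone 1 was lower and 7 were higher, and in T2 4 and 1. Fkbp4, a partner of HSP90, was at 108, 119 and 112 FPKM, and Dnaja1, a partner of HSP70, at 22.7, 20.8 and 20.2 FPKM. Dnaja1 has 3 near-identical processed pseudogenes, of which Gm15542 had 146, 142 and 136 reads. Of 9 mitochondrial chaperones and proteases 2 were lower and 1 higher in T2 against T1, 2 and 1 in T1 and 0 and 1 in T2, with Clpp at 30.5, 32.2 and 28.6 FPKM. Over all genes 10.1% were lower and 7.93% higher in T2 against T1, and 20.5% and 8.73% above a mean of 20 FPKM. In T1 against RANKL alone 12.2% were lower and 10.8% higher, and 19.4% and 19.2% above 20 FPKM. In T2 against RANKL alone 13.2% were lower and 10.2% higher, and 24.8% and 15.3% above 20 FPKM. The counts of these lists are with FPKM as deposited and were not made under the other scalings. With the same summed FPKM 5.63% of all genes were lower and 14.0% higher in T2 against T1. No difference between these lists was tested.

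**Figure D5:**
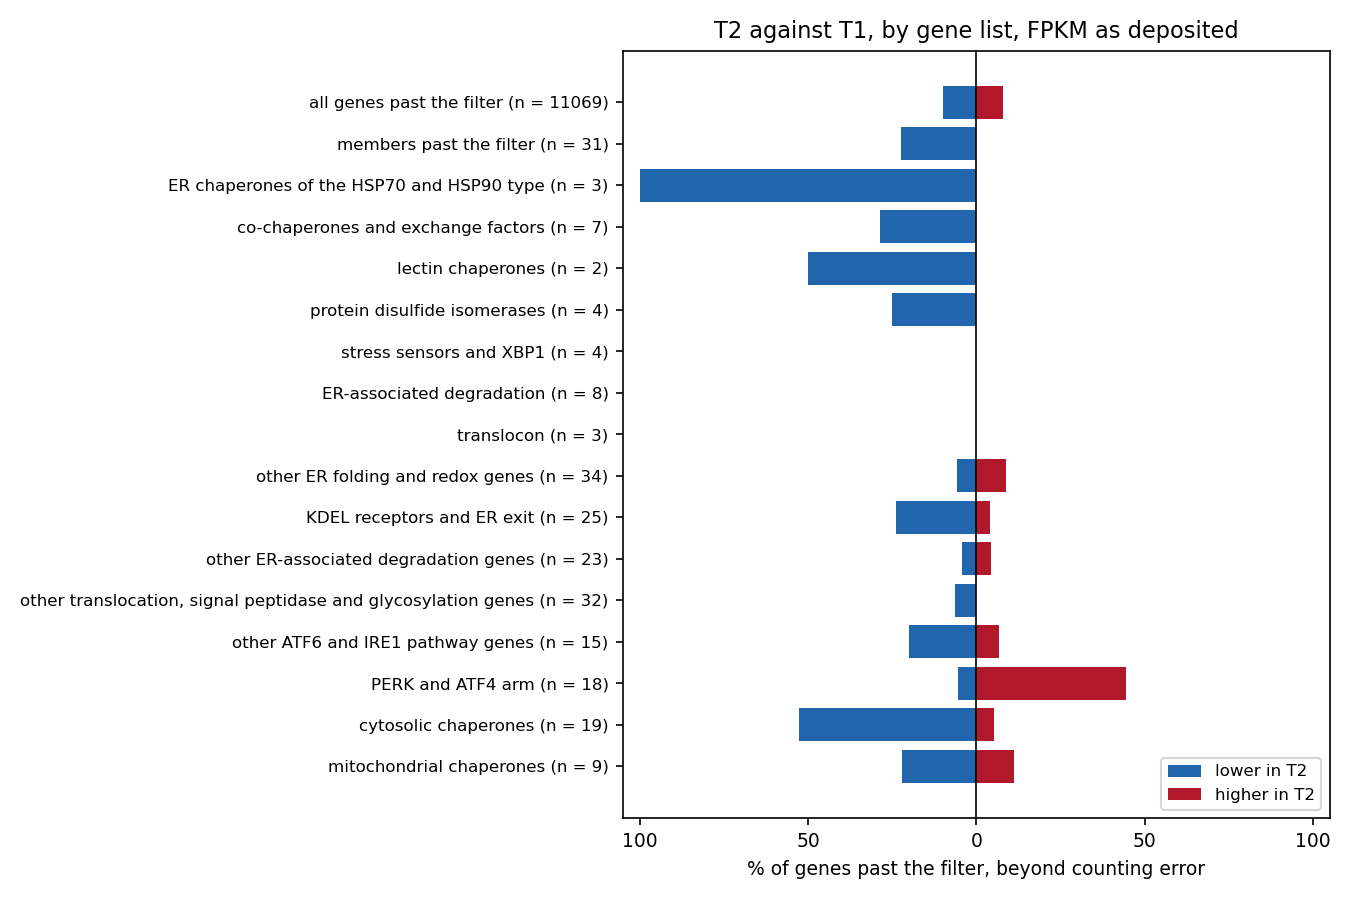
Percent of the genes past the filter in each list (horizontal axis, left lower and right higher) that were beyond counting error in T2 against T1, with FPKM as deposited. The bar of the PERK and ATF4 arm points right (8 of 18 genes), and those of the HSP70 and HSP90 type (3 of 3) and of the cytosolic chaperones (10 of 19) point left, beside 10.1% lower and 7.93% higher over all genes.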

How the data were processed

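RNA-seq was done on 3 libraries, for which a SMARTer mRNA kit was used on total RNA, per the labels' protocols. The genome is GRCm38, also named mm10, per the submitters' processing notes. How reads were aligned and counted, including strand and reads that match several places, is not given in the sources used here. Values deposited by the authors are 1 column of FPKM for each library, and the gene length in bases beside them. Unused columns of per-sample values numbered 0. The name R0 gave the library of RANKL alone, and T1 and T2 were placed in the TSH group without hours.

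In every library FPKM multiplied by length gave whole multiples of 1 step (tolerance 0.01, 100% of values), which returned the reads. The depth read off this step was -0.177%, -0.241% and 0.763% away from the summed reads. In a gene of 1 kb 3 reads correspond to 0.186, 0.179 and 0.171 FPKM. PCR copies are not independent molecules, and the intervals cover counting error only.

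Changes are on the log2(FPKM + 1) scale, which understates those of low genes, with a filter on a mean of at least 1 FPKM. The scalings compared were the values as deposited, a common summed FPKM, median of ratios and, added after the data were seen, summed reads as depth. Other alternatives were pseudocounts of 0.1 and 5, leaving out the filter or raising it to 5 FPKM, folds of 1.5 and 2, a 99% interval, the mean of members and members without a copy. The members and lists were chosen with earlier results of these data known. All 32 members are named. From each of the 14 other lists, with 240 symbols in all, up to 4 genes with the largest change could be named, and always Atf4, Ddit3, Mbtps1, Mbtps2, Kdelr2, Ero1l and Atf6b. Kdelr1, Nfatc1, Hsp90ab1 and Ero1lb, the markers named at 0 reads and the 4 other genes with an ERSE were named after their values were seen. Symbols stored as dates, 27 in number, were restored from gene identifiers.

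Near-identical copies were those that BLAST+ 2.17.0 aligned at 95% identity or more, over 100 bases or more and 50% or more of the shorter sequence, among GENCODE M21 transcripts. Exon overlaps came from bedtools 2.31.1 on the same annotation. Of the members, 4 had a copy and 11 an exon overlap with another gene. Promoters are from RefSeq, GRCm38.p6, and were matched to genes by symbol. The code ran in Python 3.11.15 (scipy 1.17.1, numpy 2.4.6, matplotlib 3.10.9 and pandas 2.3.3), and the functions were tested on simulated data.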

Additional observations from a re-analysis of the deposited data

Results flagged for a closer look

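No gene of the ER list lay beyond counting error in opposite directions in the TSH libraries, each against RANKL alone, but 4 genes of the lists read beside it did. In each case the difference could not be tested against replicates, and both comparisons share the library of RANKL alone. Trib3, the pseudokinase gene induced by ATF4, was lower in T1 at a ratio of 0.759 (0.607 to 0.948) and higher in T2 at 1.328 (1.097 to 1.611), a difference of T2 minus T1 of 0.681 in log2(FPKM + 1). Sec13, the vesicle coat gene, was higher in T1 at 1.067 (1.002 to 1.136) and lower in T2 at 0.9286 (0.871 to 0.9901), a difference of -0.195. Nfatc1, the transcription factor gene of osteoclast differentiation, was higher in T1 at 1.05 (1.03 to 1.07) and lower in T2 at 0.961 (0.943 to 0.980), a difference of -0.124. Hsp90ab1, the cytosolic HSP90 gene, was higher in T1 at 1.03 (1.01 to 1.04) and lower in T2 at 0.976 (0.964 to 0.989), a difference of -0.071. Trib3 and Nfatc1 had these calls under all 4 scalings, while with the same summed FPKM Sec13 and Hsp90ab1 were within counting error in T1.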

How the results depend on the processing

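With 1 library per group the spread between cultures is unknown and no replicate could be left out. No paired analysis was possible because each group has 1 library. No member past the filter differed by a ratio of 5 to 4 in any of the 3 comparisons, and so none did at folds of 1.5 and 2. A 99% interval left 5 genes lower in T1 against RANKL alone (9 with 95%), 6 lower in T2 against RANKL alone (13 with 95%) and 5 lower in T2 against T1 (7 with 95%). In T2 against T1 the genes higher beyond counting error numbered 0 as deposited, 5 with the same summed FPKM and 4 with summed reads as depth, and the median of the members went from -0.028 to 0.005 with the former. Over all genes these 2 scalings changed the shares of lower and higher calls in T2 against T1 from 10.1% and 7.93% to 5.63% and 14.0%, and to 7.91% and 10.4%. The scalings moved all values by at most 0.033 in log2. The lower counts ran from 9 to 12 in T1, 9 to 13 in T2 and 5 to 7 in T2 against T1 over the 4 scalings, and were 9, 12 and 6 without genes that have a copy. Pseudocount, filter and the mean of members left each median below 0. Depth limits the low genes: Derl3, with 3 to 8 reads, could not be compared.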
